A study of Mus musculus with 4 samples.

Results

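The histone genes of group 2 innate lymphoid cells (ILC2s) were described across 4 RNA-seq libraries, 2 of ILC2s from the small intestine (SI-ILC2) and 2 of ILC2s from mesenteric white adipose tissue (WAT-ILC2). These lymphocytes live in tissues, lack antigen receptors and make type 2 cytokines. Members were chosen by symbol alone: every gene whose symbol begins with Hist1h, Hist2h, Hist3h or Hist4h was taken as replication-dependent, and every gene whose symbol begins with H2af, H3f3 or H1f as a replacement histone gene. The rule found 83 genes of the 22083 in the table, 68 taken as replication-dependent and 15 as replacement genes. Of the 68, 55 had Hist1h symbols, 10 Hist2h, 2 Hist3h and 1 Hist4h. All libraries came from wild-type C57BL/6 mice aged 9 weeks, with no treatment labelled, and the tissue was the only labelled difference between the groups. The SI-ILC2s were sorted from the lamina propria, and the WAT-ILC2s from mesenteric fat. Each library was made from total RNA, but the sources used here do not give whether polyadenylated RNA was then selected or ribosomal RNA removed. Since the labels do not tie replicates 1 and 2 to separate mice, a p-value here reflects the scatter of these libraries alone, which may be technical.

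Histones are the proteins around which DNA is wrapped: H2A, H2B, H3 and H4 form the core of the nucleosome, and H1, the linker histone, binds where DNA enters and leaves it. Replication-dependent histone genes are multicopy, mostly without introns, and are transcribed chiefly in S phase to package newly copied DNA. Their mRNAs end in a conserved stem-loop in place of a poly(A) tail, although some of these genes also make polyadenylated transcripts in non-dividing or differentiating cells. Replacement histone genes are typically expressed throughout the cell cycle, often carry introns and make polyadenylated mRNA. The symbol rule also took in replacement genes annotated with a single exon, among them H1f0, H2afj and H2afx. Their proteins, such as H2A.Z and H3.3, are placed in chromatin independently of replication.

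The stem-loop is shown first because it is the feature that separates the gene classes at the RNA level. It was searched for in the GENCODE M21 transcripts (GRCm38) as a stem of 6 bases beginning GG, a loop of 4 bases and the perfectly complementary 6 bases, starting within 100 bases after the stop codon. It was found in 46 of the 68 replication-dependent genes, 21 to 58 bases after the stop codon with a median of 31. This number depends on how far each gene is annotated: of the 22 genes without a match, 13 are annotated only to the stop codon and 15 have fewer than the 37 bases after it that the nearest match needed, so their stem-loop could not be searched for. Another, Hist1h2al, has no coding annotation and is listed as a processed pseudogene, at chr13:51202727-51203065, outside the span of the other Hist1h genes. The other 6 had that many annotated bases or more and still gave no match. Of these 6, 4 (Hist1h2bc, Hist1h2bq, Hist1h2br and Hist2h2be) have 742 to 2192 bases after the stop codon. Of the 15 replacement genes, H2afx, which encodes the H2A.X protein phosphorylated at DNA breaks, was the only match. The following sequences run 5′ to 3′ on the gene's strand, with the stem-loop in capitals and up to 6 flanking bases on each side.
Hist1h1c: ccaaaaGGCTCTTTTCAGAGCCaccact
Hist1h2bg: cccaaaGGCTCTTTTCAGAGCCacccat
Hist2h2aa1: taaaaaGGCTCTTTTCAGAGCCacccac
Hist1h4m: actaaaGGCCCTTTTCAGGGCCatc
H2afx: cacaaaGGCCCTTTTAAGGGCCaccacc
They lie, all on the plus strand, at chr13:23739506-23739533 for Hist1h1c, chr13:23571837-23571864 for Hist1h2bg, chr3:96246026-96246053 for Hist2h2aa1, chr13:21812123-21812147 for Hist1h4m and chr9:44335234-44335261 for H2afx. The first form, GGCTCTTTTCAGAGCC, was carried by 26 genes for H1, H2A, H2B or H3 and by no H4 gene. The form in Hist1h4m, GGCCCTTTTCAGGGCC, was carried by 7 genes, all for H4.

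Signal was present from nearly every member at low levels. Values are RPKM, reads per kilobase of gene scaled to the library's mapped reads, which allows levels to be compared between genes per length. Only H2afb3 was listed at 0 in all 4 libraries. The mean RPKM over libraries of the replication-dependent genes ran from 0.0242 to 17.4 with a median of 0.586, beside a median of 0.236 over all genes. The replacement genes ran from 0 to 250 with a median of 0.528. The 23 replication-dependent genes whose annotated transcript ends within 100 bases after the stem-loop had a median of 0.634. The 14 genes with annotation running on past the stem-loop to an AATAAA poly(A) signal had a median of 0.538, the 9 that run on without AATAAA 0.740, and the 22 with no stem-loop found, most of them too short in the annotation to hold one, 0.564. The highest replication-dependent gene, Hist1h1c, is annotated for 840 bases beyond its stem-loop, with AATAAA 814 bases after it.

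Summed over the class, histone RPKM was higher in SI-ILC2s for both classes, though not for every member. The replication-dependent genes summed to 103.6 and 103.8 RPKM in the SI-ILC2 libraries and to 55.61 and 46.14 in the WAT-ILC2 libraries. The replacement genes summed to 895.3 and 830.8 RPKM in the SI-ILC2 pair of libraries and to 414.1 and 354.6 in the WAT-ILC2 pair. Both sums were higher in each SI-ILC2 library than in either WAT-ILC2 library. The mean sum was 103.7 ± 0.14 against 50.87 ± 6.70 (SD, n = 2 per tissue) for replication-dependent genes, a ratio of 2.04, and 863 ± 45.6 against 384 ± 42.05 for replacement genes, a ratio of 2.25. No p-value is given for these sums: an exact two-sided permutation test of 2 libraries against 2 cannot go below 0.333. The sum of replacement genes was 7.45 to 8.64 times that of replication-dependent genes over the 4 libraries. Whether polyadenylated RNA was selected is not known, so these sums and their ratio may leave out stem-loop mRNA without a poly(A) tail. A few genes carried both sums. Among replacement genes, the mean of H2afz was 384 RPKM in SI-ILC2s against 115 in WAT-ILC2s, and that of H3f3b 333.5 against 100.8. In the same order, H3f3a stood at 94.2 against 105.6, H2afy at 30.8 against 42.6 and H2afv at 2.33 against 5.4. H2afx (14.3 against 11.1) and H2afj (2.42 against 2.25) had slightly higher means in SI-ILC2s. The higher replacement sum thus lay mainly in H2afz and H3f3b and was not shared across the class. Without Hist1h1c the ratio of the replication-dependent sums was 1.57, at 71.88 and 74.60 RPKM in the SI-ILC2 pair of libraries and 50.75 and 42.30 in the WAT-ILC2 pair. In these bulk libraries more RNA per cell and a larger share of cells expressing a gene cannot be told apart.

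**Figure D1:**
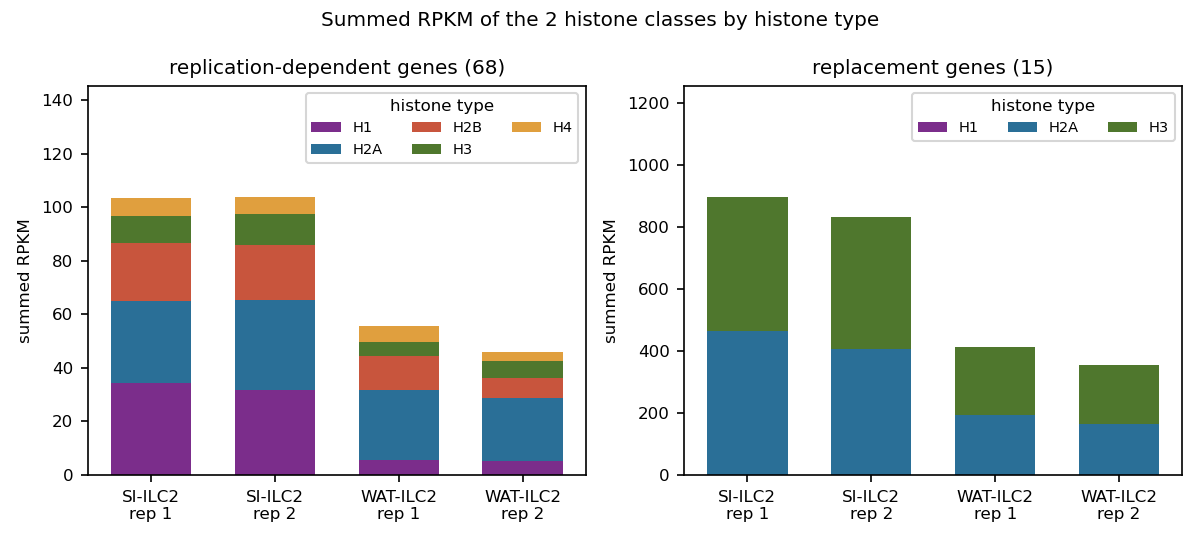
Summed RPKM (vertical axis, linear from 0) in each of the 4 libraries (horizontal axis) for the 68 replication-dependent genes and the 15 replacement genes, stacked by histone type. The replication-dependent sums stood at 103.6 and 103.8 in SI-ILC2s against 55.61 and 46.14 in WAT-ILC2s, with the H1 segment the most unequal between tissues.

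The tissues were then compared gene by gene with limma on log2(RPKM + 1), a scale on which the change of low genes is understated. Genes with at least 1 RPKM in at least 2 libraries were tested, with Benjamini-Hochberg adjustment over all 8230 of them and a threshold of 0.05. Of all tested genes 47.5% were called, 17.9% as higher in SI-ILC2s and 29.6% as higher in WAT-ILC2s. Scaling moved this split: 23.8% and 22.1% with median-of-ratios factors, 21.5% and 22.9% with quantile normalization, and 13.7% and 35.1% with columns set to equal sums. Over all tested genes, these scalings moved the median log2 change from -0.15 to 0.00, -0.02 and -0.26. Of the 68 replication-dependent genes, 23 were tested: 14 had more RNA in SI-ILC2s, 1 (Hist3h2a) had more in WAT-ILC2s, and the test was not passed by 8. With the same 3 scalings the counts were 14, 15 and 13 in SI-ILC2s and 1 in WAT-ILC2s each time. The other 45 were below the expression minimum. That count favours one direction by construction, because 8 of the 23 reached 1 RPKM in SI-ILC2s only and so had to differ. Of the 10 genes at or above 1 RPKM in all 4 libraries, 5 were higher in SI-ILC2s (Hist1h1c, Hist1h2bc, Hist1h3f, Hist2h2aa1 and Hist2h2aa2) and 0 in WAT-ILC2s (limma; also 5 and 0 at an unadjusted p below 0.05), beside 17.2% and 25.8% of the 6604 genes at that level. With no minimum, both SI-ILC2 libraries stood above both WAT-ILC2 libraries for 32 of 68 replication-dependent genes (47.1%, against 23.0% of all genes), and both WAT-ILC2 libraries stood above for 7 (10.3%, against 30.8% of all genes). The median log2 change over all 68 was 0.14, beside -0.01 over all genes.

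Of the 15 replacement genes, 7 were tested and all 7 were at or above 1 RPKM in every library. H2afz and H3f3b were higher in SI-ILC2s, H2afv and H2afy were higher in WAT-ILC2s, and H2afj, H2afx and H3f3a did not pass, beside 17.2% and 25.8% of all genes at that level. With no minimum, 4 of the 15 stood above in both SI-ILC2 libraries and 4 in both WAT-ILC2 libraries, 26.7% each way, near the 23.0% and 30.8% of all genes.

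**Figure D2:**
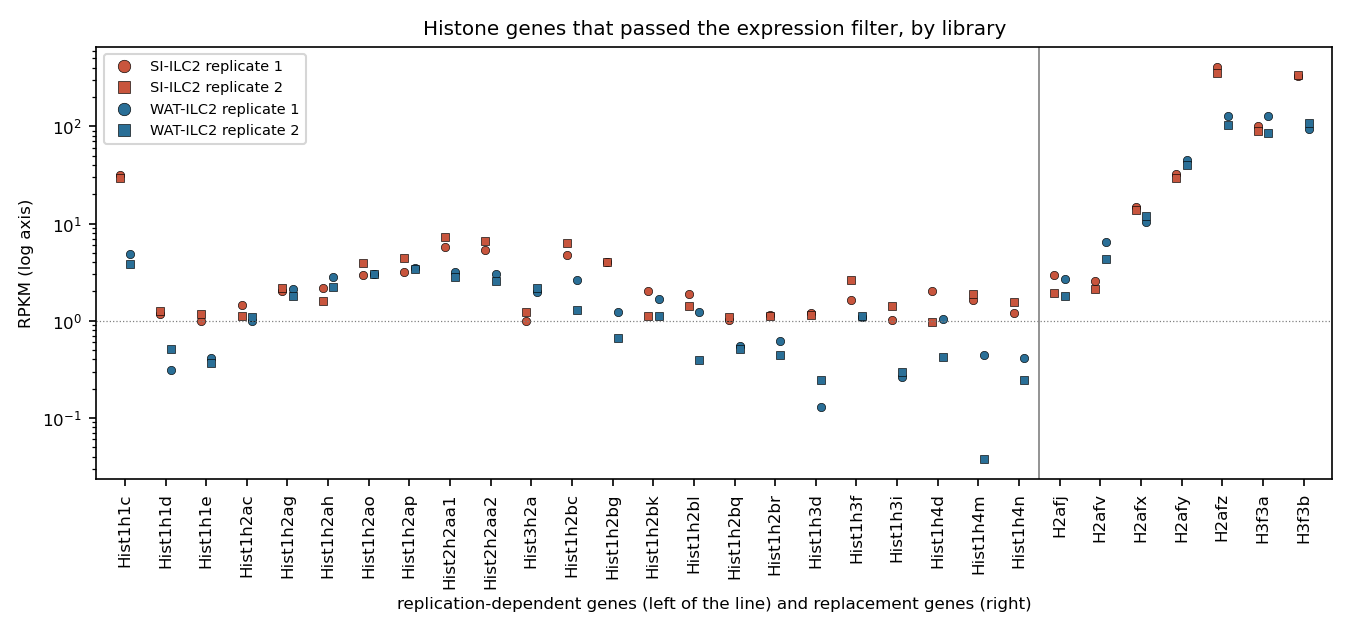
RPKM on a log axis for the 23 replication-dependent (left of the line) and 7 replacement genes (right) that passed the expression minimum, with 1 point per library and colour for tissue; the dotted line marks 1 RPKM. Hist1h1c stands at 31.8 and 29.2 in SI-ILC2s against 4.86 and 3.84 in WAT-ILC2s, and 8 replication-dependent genes lie above the dotted line only in SI-ILC2s.

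Gene length moved with the direction of change across the whole table and is given here for that reason. Among tested genes with under 600 bases of exon, other than histone genes, 24.2% of 66 were called higher in the intestinal cells and 10.6% in those of fat, with a median log2 change of 0.46. Among single-exon genes under 2400 bases, other than histone genes, the shares were 31.4% and 14.1% of 156, with a median of 0.42. Genes of 4800 bases or more showed 15.2% and 32.2%, with a median of -0.20. Over the 23 tested replication-dependent genes the median was 0.58, but 8 of them reached the minimum in SI-ILC2s only and so had to differ. The part of gene length in the change of the short replication-dependent genes was not tested. Of these 68 genes, 63 are annotated with a single exon, and their exon length runs from 312 to 7425 bases. H2afz has 1776 bases of exon and H3f3b has 2976, so both lie outside the shortest class.

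Linker H1 genes held the widest difference between the tissues. The summed RPKM of the 6 replication-dependent H1 genes was 34.20 and 31.93 in the SI-ILC2 pair of libraries and 5.75 and 5.20 in the WAT-ILC2 pair, a ratio of 6.04. Hist1h1c, which encodes the H1.2 subtype, made up 92.9% and 91.6% of that sum in SI-ILC2s, against 84.5% and 73.9% in WAT-ILC2s. These shares depend on the gene lengths used: GENCODE M21 gives Hist1h1d 7425 bases of exon and Hist1h1c 1560. A long annotation lowers the RPKM for the same number of reads. Hist1h1c was at 31.8 and 29.2 RPKM in the SI-ILC2 pair of libraries and 4.86 and 3.84 in the WAT-ILC2 pair, so the tissues were far from overlapping. The means were 30.5 ± 1.79 and 4.35 ± 0.719 RPKM (SD, n = 2 each), 7.01-fold apart, and the log2 change was 2.56 ± 0.155 (SE) with an adjusted p of 2.4e-04. Hist1h1c alone gave 30.7% and 28.2% of all replication-dependent RPKM in SI-ILC2s, against 8.74% and 8.33% in WAT-ILC2s. Of the 50-base windows of its transcript, 8.54% occur in another member, beside a median of 48.1% over the 68 replication-dependent genes.

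The other H1 genes were near or below 1 RPKM. Hist1h1d (the H1.3 subtype) was at 1.18 and 1.26 RPKM in the SI-ILC2 pair of libraries and 0.314 and 0.511 in the WAT-ILC2 pair, and was higher in SI-ILC2s by 0.66 log2 units (adjusted p = 0.0064). Hist1h1e (the H1.4 subtype) was at 1.001 and 1.19 against 0.409 and 0.366, a log2 change of 0.59 (adjusted p = 0.0069). Both reached the minimum in SI-ILC2s only, and the annotation of Hist1h1e overlaps Hist1h2be and a predicted gene, Gm11398, on the same strand, so its reads are uncertain. Below the minimum, Hist1h1a (H1.1) went the other way: it was listed at 0 in both SI-ILC2 libraries and at 0.168 and 0.379 RPKM in WAT-ILC2s. Hist1h1t, the testis H1 gene, was at 0.180 and 0.184 RPKM in SI-ILC2s against 0 and 0.0417.

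H2A genes differed least in sum. The 19 replication-dependent H2A genes summed to 30.81 and 33.62 RPKM in the SI-ILC2 pair of libraries and 25.89 and 23.65 in the WAT-ILC2 pair, a ratio of 1.30. Hist2h2aa1 was at 5.77 and 7.25 RPKM in the SI-ILC2 pair of libraries and 3.17 and 2.79 in the WAT-ILC2 pair, and was higher in SI-ILC2s by 0.91 ± 0.162 (adjusted p = 0.0056). Its twin Hist2h2aa2 was at 5.40 and 6.59 against 3.01 and 2.54 (log2 change 0.89, adjusted p = 0.0059). The coding sequences of the twins are identical over 390 bases, so how reads were split between them is uncertain and they are best read as 1 pair, with summed RPKM of 11.16 and 13.84 in the SI-ILC2 pair of libraries and 6.17 and 5.33 in the WAT-ILC2 pair. Hist2h2aa1 also overlaps the predicted gene Gm20634 on the same strand.

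Hist3h2a, from the small Hist3 cluster, was the only replication-dependent gene called higher in WAT-ILC2s. It was at 0.987 and 1.22 RPKM in the SI-ILC2 pair of libraries and 1.96 and 2.17 in the WAT-ILC2 pair, with a log2 change of -0.55 ± 0.134 (adjusted p = 0.017). The libraries did not overlap, but without SI-ILC2 replicate 1 the call was lost, with a log2 change of -0.47 and an adjusted p of 0.10. Hist3h2a overlaps Trim17 on the same strand. Hist1h2ap and Hist1h2ao, the next most abundant H2A genes, had identical coding sequences and overlapping tissues. Hist1h2ap was at 3.16 and 4.40 RPKM in the SI-ILC2 pair of libraries and 3.50 and 3.43 in the WAT-ILC2 pair (adjusted p = 0.70). Hist1h2ao was at 2.92 and 3.93 against 2.99 and 3.04 (adjusted p = 0.53). Every one of the 19 H2A genes overlaps a gene annotated on the opposite strand, against 0 of 6 H1, 1 of 18 H2B, 1 of 12 H3 and 1 of 13 H4 genes. Since the sources used here do not say whether counting used strand, reads of the H2A genes and of those opposite genes cannot be told apart.

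H2B genes leaned towards SI-ILC2s. Both SI-ILC2 libraries stood above both WAT-ILC2 libraries for 10 of the 18 (55.6%, against 23.0% of all genes). The reverse held for 1 (5.56%, against 30.8% of all genes). The 18 genes summed to 21.59 and 20.43 RPKM in the SI-ILC2 pair of libraries and 12.83 and 7.56 in the WAT-ILC2 pair, a ratio of 2.06. Hist1h2bg was at 4.04 and 4.03 RPKM in the SI-ILC2 pair of libraries and 1.24 and 0.668 in the WAT-ILC2 pair, a log2 change of 1.38 ± 0.177 (adjusted p = 0.0019). Hist1h2bc, which encodes the same protein with 98.7% identity in coding sequence, was at 4.76 and 6.37 against 2.64 and 1.28 (log2 change 1.18 ± 0.253, adjusted p = 0.011). Within WAT-ILC2s the level of Hist1h2bc was higher in replicate 1, and neither WAT-ILC2 library reached the SI-ILC2 values. Hist1h2bq was at 1.01 and 1.09 against 0.549 and 0.512 RPKM, and Hist1h2br at 1.14 and 1.12 against 0.621 and 0.439. These 2 genes were called higher in SI-ILC2s (log2 changes 0.42 and 0.48, adjusted p = 0.020 and 0.018) but reached the minimum there only, and 97.3% and 88.5% of their 50-base windows occur in another member. Without WAT-ILC2 replicate 2 both calls were lost (adjusted p = 0.080 and 0.093), and that of Hist1h2bq also without SI-ILC2 replicate 2 (adjusted p = 0.069).

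Many H2A and H2B genes sit head to head and are transcribed away from a shared region. The annotation holds 12 such pairs with start sites 176 to 306 bases apart. The H2B gene had the larger log2 change in 10 of the 12, with a median of 0.41 for the H2B and 0.08 for the H2A genes. The exceptions were Hist1h2aa with Hist1h2ba and Hist2h2ac with Hist2h2be. Both SI-ILC2 libraries stood above both WAT-ILC2 libraries for 7 of the 12 H2B genes and 3 of the 12 H2A genes, beside 23.0% of all genes. Hist1h2ae, whose start lies 176 bases from that of Hist1h2bg, had a log2 change of 0.29 beside 1.38, and Hist1h2ac, 251 bases from Hist1h2bc, had 0.17 beside 1.18. The difference between partners was not tested, and all 12 H2A partners overlap opposite-strand annotation. The pairs share genomic regions and near-identical sequence, as Hist1h2ao with Hist1h2ap and Hist1h2bq with Hist1h2br, so the 12 are not separate observations.

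**Figure D3:**
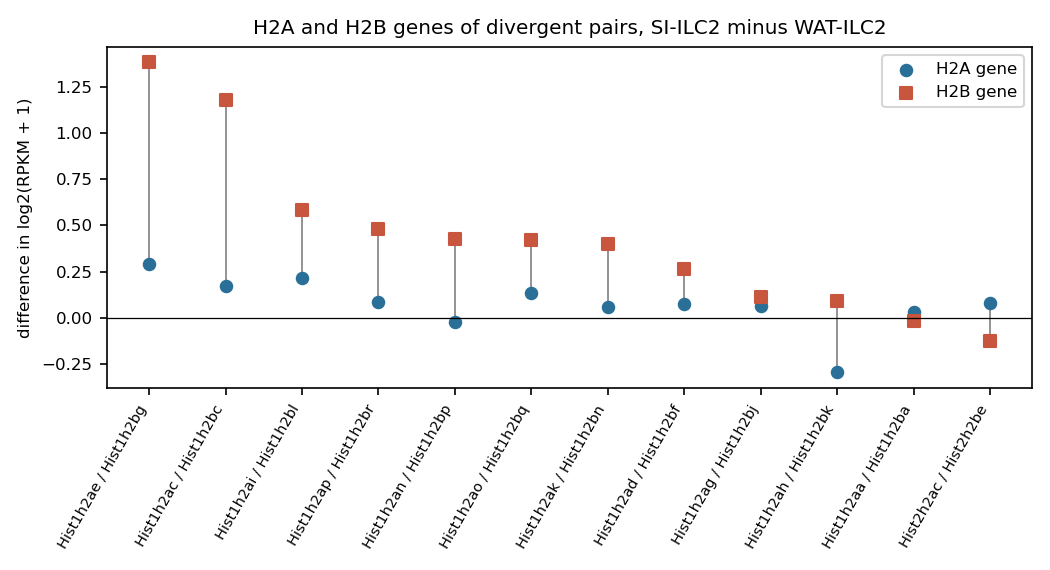
Difference in log2(RPKM + 1) between SI-ILC2s and WAT-ILC2s (vertical axis) for the H2A gene (circle) and H2B gene (square) of each of 12 head-to-head pairs (horizontal axis); a line joins partners, and points show estimates without error bars. The square lies above the circle in 10 of 12 pairs, with the widest gaps at Hist1h2ae with Hist1h2bg (0.29 and 1.38) and Hist1h2ac with Hist1h2bc (0.17 and 1.18).

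Promoter sequence is shown for the most abundant gene of each class, Hist1h1c and H2afz, and for the head-to-head pair with the widest gap. The first sequence is the 250 bases before the start of Hist1h1c, at chr13:23738557-23738806. The second is the whole region between the start sites of Hist1h2ae and Hist1h2bg, at chr13:23571221-23571395, read on the strand of Hist1h2bg. The third is the 250 bases before the start of H2afz, at chr3:137864237-137864486. All are on the plus strand of GRCm38.p6, are credited to RefSeq and run 5′ to 3′. Capitals mark matches on either strand to CCAAT, to TATAAA or to the octamer ATTTGCAT, which are letters bound by NF-Y, by the TATA-binding protein and by octamer factors such as Oct-1.
Hist1h1c: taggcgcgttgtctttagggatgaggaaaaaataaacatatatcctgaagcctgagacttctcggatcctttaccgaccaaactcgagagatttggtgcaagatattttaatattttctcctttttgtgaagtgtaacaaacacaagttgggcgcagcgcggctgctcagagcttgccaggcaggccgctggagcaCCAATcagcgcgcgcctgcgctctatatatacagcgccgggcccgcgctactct
Hist1h2ae to Hist1h2bg: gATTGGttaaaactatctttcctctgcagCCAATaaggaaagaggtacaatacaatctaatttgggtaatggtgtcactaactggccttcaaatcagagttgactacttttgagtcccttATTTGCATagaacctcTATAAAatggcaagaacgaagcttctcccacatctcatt
H2afz: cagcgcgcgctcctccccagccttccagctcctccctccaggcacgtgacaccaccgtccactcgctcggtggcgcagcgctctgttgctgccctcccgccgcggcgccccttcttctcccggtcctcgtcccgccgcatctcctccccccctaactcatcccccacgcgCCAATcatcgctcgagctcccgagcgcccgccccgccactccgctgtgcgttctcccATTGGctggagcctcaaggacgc
Hist1h1c had CCAAT and no TATAAA in this stretch. The region between Hist1h2ae and Hist1h2bg held 2 matches to CCAAT and 1 each to TATAAA and the octamer, and H2afz had 2 matches to CCAAT. Over the 300-base windows that RefSeq gives around each start (250 bases before it and 50 after), 61 replication-dependent and 13 replacement genes could be matched. CCAAT was in 52 of the 61 replication-dependent windows (85.2%), beside 37.4% of all 32851 promoters, and TATAAA in 35 (57.4%, beside 13.6%). The octamer was in 13 (21.3%, beside 1.74%), all of them H2A (7 of 17) or H2B genes (6 of 16). Windows of head-to-head partners overlap, so 1 match can count for both genes, as for Hist1h2ae with Hist1h2bg, and the windows are not separate. The 13 replacement windows held CCAAT in 9 (69.2%), and TATAAA and the octamer in 1 each (7.69%), which was that of H3f3b. None of the 3 motifs contains another, and a match is a description of letters, not a binding site.

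H3 genes followed the class at low levels. The 12 replication-dependent H3 genes summed to 10.09 and 11.58 RPKM in the SI-ILC2 pair of libraries and 5.28 and 6.35 in the WAT-ILC2 pair, a ratio of 1.86. Both SI-ILC2 libraries stood above both WAT-ILC2 libraries for 8 of the 12 (66.7%, against 23.0% of all genes). WAT-ILC2 libraries stood above for 0, against 30.8% of all genes. Hist1h3f was at 1.64 and 2.61 RPKM in the SI-ILC2 pair of libraries and 1.08 and 1.13 in the WAT-ILC2 pair (log2 change 0.55, adjusted p = 0.042). The call was lost without SI-ILC2 replicate 2, the highest of the 4, with a log2 change of 0.33 and an adjusted p of 0.18. Hist1h3d was at 1.20 and 1.13 against 0.128 and 0.244 (log2 change 0.87, adjusted p = 0.0018), and Hist1h3i at 1.02 and 1.42 against 0.262 and 0.295 (0.79, adjusted p = 0.0040). Both reached the minimum in SI-ILC2s only. In Hist1h3i 87.6% of 50-base windows occur in another member, so its reads are uncertain.

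H4 genes showed no shared direction. All 13 encode the same protein of 103 residues. They summed to 6.97 and 6.27 RPKM in the SI-ILC2 pair of libraries and to 5.86 and 3.38 in the WAT-ILC2 pair, a ratio of 1.43. Tissues were separated for 4 of the 13, with 2 in each direction. That is 15.4% each way, beside 23.0% of all genes with SI-ILC2s above and 30.8% with WAT-ILC2s above. Hist1h4m was at 1.63 and 1.87 RPKM in the SI-ILC2 pair of libraries and 0.447 and 0.0377 in the WAT-ILC2 pair (log2 change 1.17, adjusted p = 0.0032), and Hist1h4n at 1.19 and 1.55 against 0.418 and 0.247 (0.83, adjusted p = 0.0040). These share 89.8% and 85.6% of their windows with other members and passed the minimum through SI-ILC2s only. Hist2h4 was the opposite case: below the minimum, it was at 0.169 and 0.164 RPKM in the SI-ILC2 pair of libraries and 0.928 and 0.971 in the WAT-ILC2 pair. In a fit with no minimum it was called higher in WAT-ILC2s (log2 change -0.74, adjusted p = 0.0079).

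Few reads stand behind these values. Deposited values of single-exon genes step by what 1 read is worth, which gave an estimated 76240000 and 59840000 reads for SI-ILC2 replicates 1 and 2 and 55660000 and 65660000 for WAT-ILC2 replicates 1 and 2. At those depths 79.9% to 81.5% of the low values used were whole reads within 0.1, where chance gives 20%, so the depths and the reads derived from them are estimates. For the 63 single-exon replication-dependent genes the median was 19.9 reads per gene and library, and 72 of 252 values (28.6%) came to under 10 reads.

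Among replacement genes, the H2A.Z pair held the most abundant member and opposite directions. H2A.Z is a variant of H2A found at promoters and regulatory elements. It is encoded by H2afz (H2A.Z.1) and H2afv (H2A.Z.2), whose proteins match in 125 of 128 residues and whose coding sequences are 79.2% identical. H2afz was at 412 and 357 RPKM in the SI-ILC2 pair of libraries and 127 and 103 in the WAT-ILC2 pair, 384 ± 39.2 against 115 ± 16.9 (SD, n = 2 each). It was higher in SI-ILC2s 3.34-fold (log2 change 1.73 ± 0.186, adjusted p = 0.0011). H2afv was at 2.54 and 2.13 RPKM in the SI-ILC2 pair of libraries and 6.50 and 4.29 in the WAT-ILC2 pair, and was higher in WAT-ILC2s 2.31-fold (log2 change -0.92 ± 0.202, adjusted p = 0.012). Neither gene's tissues overlapped. H2afz made up 99.4% of the summed RPKM of the pair in both SI-ILC2 libraries and 95.1% and 96.0% in WAT-ILC2s, and the pair's sum was 414.6 and 358.8 against 133.6 and 107.6.

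The H3.3 pair split in another way. H3f3a and H3f3b encode the same H3.3 protein of 136 residues from coding sequences that match at 313 of 408 bases (76.7%), so reads of these genes can be told apart. H3f3b was at 330 and 337 RPKM in the SI-ILC2 pair of libraries and 94.4 and 107 in the WAT-ILC2 pair, 3.31-fold higher in SI-ILC2s (log2 change 1.72 ± 0.162, adjusted p = 7.2e-04). H3f3a was at 99.7 and 88.6 against 126 and 84.7, with overlapping tissues (log2 change -0.14 ± 0.22, adjusted p = 0.63). Its sign turned to 0.05 with median-of-ratios scaling and to 0.15 without WAT-ILC2 replicate 1, and the change was -0.42 without WAT-ILC2 replicate 2. H3f3b gave 76.8% and 79.2% of the summed RPKM for H3.3 in SI-ILC2s, but 42.8% and 55.8% in WAT-ILC2s. The summed RPKM of the pair was 429.7 and 425.6 in the SI-ILC2 pair of libraries and 220.8 and 191.8 in the WAT-ILC2 pair, 2.07-fold apart. In the 250 bases before the RefSeq start, H3f3b held 4 matches to CCAAT, 1 to TATAAA and 1 to the octamer, and H3f3a held 1 to CCAAT. These RefSeq starts lie inside the GENCODE genes, at genome offsets of -3458 (H3f3b) and -338 bases (H3f3a) from the GENCODE starts. H3f3a overlaps H3f3aos and Gm17275 on the opposite strand.

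The order of mean levels among the replacement genes was H2afz, H3f3b, H3f3a, H2afy, H2afx, H2afv and H2afj. In WAT-ILC2s the levels of H2afz, H3f3b and H3f3a overlapped, while in SI-ILC2s both H2afz libraries stood above both H3f3b libraries and H3f3a stood below. H2afy, which encodes macroH2A1, a variant with a large extra domain linked to repressed chromatin, was at 32.4 and 29.2 RPKM in the SI-ILC2 pair of libraries and 45.5 and 39.7 in the WAT-ILC2 pair. It was called higher in WAT-ILC2s 1.38-fold (log2 change -0.45 ± 0.149, adjusted p = 0.046). This call was lost without SI-ILC2 replicate 1 (adjusted p = 0.15), SI-ILC2 replicate 2 (0.27) or WAT-ILC2 replicate 1 (0.17), and with 3 of the other alternatives. H2afy2, which encodes macroH2A2, was below the minimum at 0.290 and 0.408 against 0.505 and 0.910 RPKM. H2afx was at 14.8 and 13.8 RPKM in the SI-ILC2 pair of libraries and 10.4 and 11.8 in the WAT-ILC2 pair. Its libraries did not overlap, but the change of 0.34 ± 0.141 did not pass (adjusted p = 0.091); with median-of-ratios scaling it did (0.027). Its annotation runs 822 bases past the stem-loop shown above. H2afj was at 2.92 and 1.92 against 2.68 and 1.82 (adjusted p = 0.80). Of the variants of germ cells, H1fnt, H1foo and the H2afb genes did not exceed 0.230 RPKM, and H1f0, the linker histone of differentiated cells, was at 0.385 and 0.703 against 0.284 and 0.333.

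**Figure D4:**
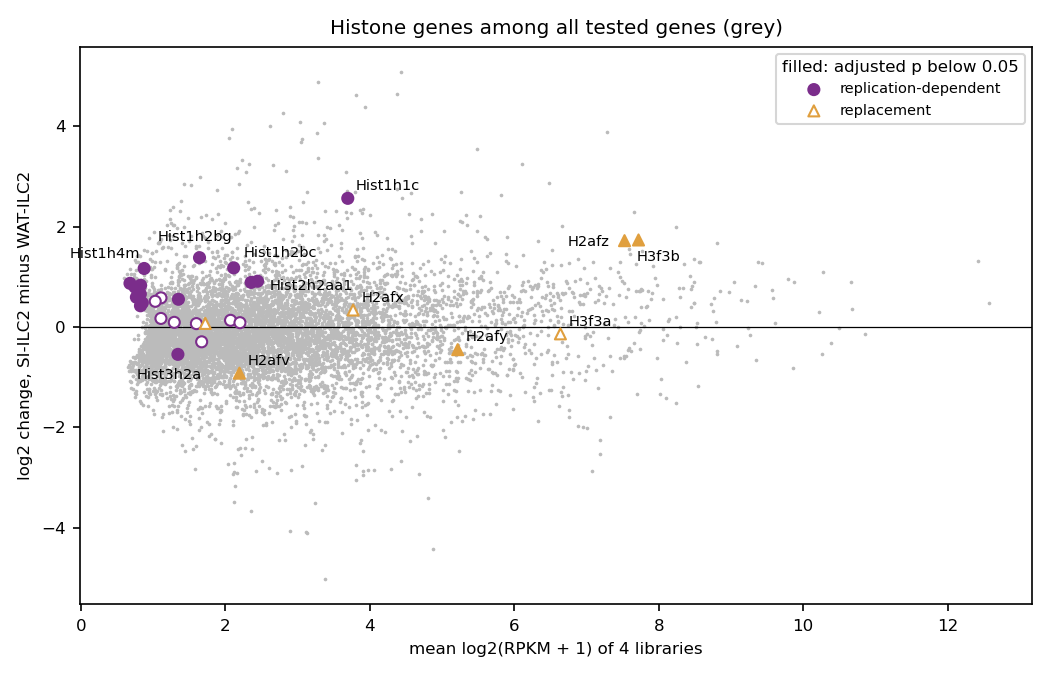
Log2 change between tissues (vertical axis, SI-ILC2 minus WAT-ILC2) against mean log2(RPKM + 1) over 4 libraries (horizontal axis) for all 8230 tested genes (grey), with replication-dependent genes as circles and replacement genes as triangles, filled where the adjusted p is below 0.05. Hist1h1c (2.56), H2afz (1.73) and H3f3b (1.72) stand highest among the members, and H2afv (-0.92), Hist3h2a (-0.55) and H2afy (-0.45) are the filled symbols below 0.

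Genes that act on histone mRNA or protein were counted in the same fit, against the same 17.9% and 29.6% of all tested genes. Of 24 tested genes for transcription, processing and decay of histone mRNA, 1 was called as higher in SI-ILC2s and 8 as higher in WAT-ILC2s, and 15 missed the threshold, with a median log2 change of -0.18 beside -0.15 over all tested genes. Slbp, which binds the stem-loop, was at 24.6 and 20.9 RPKM in the SI-ILC2 pair of libraries and 35.5 and 31.9 in the WAT-ILC2 pair (log2 change -0.55, adjusted p = 0.026). Cpsf3, the nuclease that cuts histone pre-mRNA, was at 5.79 and 5.44 against 12.2 and 11.1 (-0.94, adjusted p = 0.0030). Cdk2, the kinase that activates histone transcription through NPAT, was at 2.43 and 1.97 against 10.5 and 8.73 (-1.73, adjusted p = 7.2e-04), and Pou2f1, which encodes Oct-1, at 2.05 and 2.19 against 5.95 and 6.66 (-1.23, adjusted p = 0.0014). Each of these was higher in both WAT-ILC2 libraries, as was Zcchc11, a uridylyltransferase (-0.89, adjusted p = 0.013). Tut1, a terminal uridylyltransferase, was the gene higher in SI-ILC2s (7.66 and 7.19 against 3.82 and 4.29, adjusted p = 0.0074).

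Of 31 tested chaperone and deposition genes, 3 were called as higher in SI-ILC2s and 10 as higher in WAT-ILC2s, and 18 missed the threshold. Those higher in SI-ILC2s were Hat1, the acetyltransferase of new H4 (12.1 and 11.2 against 6.47 and 4.76 RPKM, adjusted p = 0.0059), and the nucleolar Npm1 and Ncl (log2 changes 0.67 and 0.63). Chaf1b, a subunit of the CAF-1 complex that loads H3 and H4 behind the replication fork, was at 0.548 and 0.366 in the SI-ILC2 pair of libraries and 3.18 and 2.92 in the WAT-ILC2 pair (log2 change -1.48, adjusted p = 6.5e-04). Cenpa, the H3 variant of centromeres, was at 1.94 and 1.66 against 6.59 and 5.16 (-1.29, adjusted p = 0.0019). It is a histone that the symbol rule left out. Nasp, a chaperone of H1, H3 and H4, and Mcm2, which binds H3 and H4 at the fork, both had a log2 change of -0.88.

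Many S phase genes stood above in WAT-ILC2s and many others overlapped. Of 43 listed, 22 stood above in both WAT-ILC2 libraries, 2 in both SI-ILC2 libraries and 19 overlapped, beside 30.8% and 23.0% of all genes for the separated ones. The expression minimum was passed by 19: 0 were called as higher in SI-ILC2s and 10 as higher in WAT-ILC2s, and 9 missed the threshold (17.9% and 29.6% of all tested genes were called), with a median log2 change of -0.68. At an unadjusted p below 0.05 limma gave 2 and 12; the 2 were Fen1 (SI-ILC2 3.99 and 3.65 RPKM, WAT-ILC2 3.09 and 1.84, adjusted p = 0.084) and Lig1 (SI-ILC2 4.96 and 4.98, WAT-ILC2 3.42 and 3.81, adjusted p = 0.068), which act in joining DNA fragments. Cdt1, which licenses replication origins, was at 2.55 and 2.18 RPKM in the SI-ILC2 pair of libraries and 15.8 and 11.9 in the WAT-ILC2 pair (log2 change -2.13, adjusted p = 5.3e-04). Rrm1 (a ribonucleotide reductase subunit), Tk1 (thymidine kinase) and Mcm6 (a subunit of the replicative helicase) had log2 changes of -1.40, -0.98 and -0.97. Pcna, the replication clamp, was at 55.0 and 43.4 against 98.2 and 68.4 (-0.74, adjusted p = 0.034). Markers of dividing cells were below the minimum and mixed. Mki67 was at 0.105 and 0.148 against 0.268 and 0.189 and Top2a at 0.493 and 0.643 against 0.784 and 1.12, both separated. Ccna2 (0.0918 and 0.126 against 0.108 and 0.139), Cdk1 (0.192 and 0.183 against 0.157 and 0.220) and Aurka (0.694 and 0.526 against 0.138 and 0.611) overlapped. The sum of replication-dependent histone RPKM was higher in the tissue in which the called S phase genes were lower. A test of the relation between the lists was not made.

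**Figure D5:**
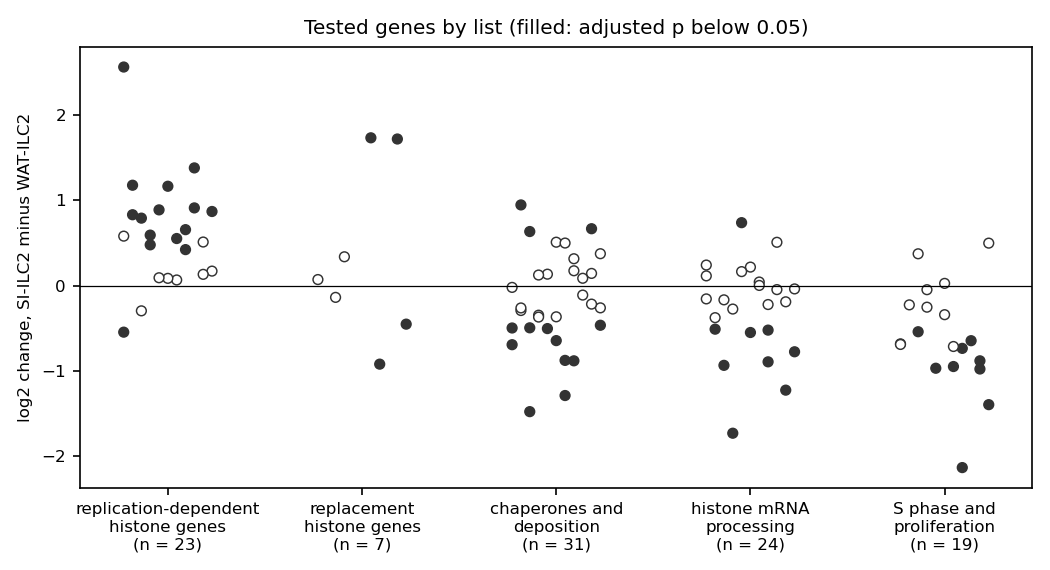
Log2 change (vertical axis, SI-ILC2 minus WAT-ILC2) of every tested gene, by list (horizontal axis, with the number tested), filled where the adjusted p is below 0.05. Filled points of the S phase list all lie below 0, while 14 of the 15 filled replication-dependent points lie above it; 8 of those 14 passed the minimum through SI-ILC2s only and had to differ.

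Across the table, libraries of a tissue correlated at 0.985 (SI-ILC2) and 0.979 (WAT-ILC2) and libraries of different tissues at 0.863 to 0.880 (Pearson r over the log2 values of tested genes). All 10 ILC2 markers examined, among them Gata3, Il7r and Il1rl1, reached 1 RPKM, with sums of 880 to 954 in every library. These similar sums hold opposite changes. Of the 10 markers, limma called 3 with more RNA in the intestinal cells and 4 with more in those of fat (17.9% and 29.6% of all tested genes). Red cell markers were called higher in WAT-ILC2s (5 of 5, beside 29.6% of all tested genes). Their summed RPKM was 41.5 and 13.2 in the SI-ILC2 pair of libraries and 140 and 88.9 in the WAT-ILC2 pair. T cell markers summed to 8.43 and 6.77 against 23.2 and 12.4, fibroblast markers to 0.359 and 0.483 against 9.71 and 4.34, adipocyte markers to 0.544 and 0.280 against 4.37 and 3.66, and B and plasma cell markers to 17.6 and 13.4 against 3.06 and 2.49. Intestinal epithelium markers summed to 5.03 and 6.68 RPKM in the SI-ILC2 pair of libraries and 8.38 and 8.09 in the WAT-ILC2 pair. Only 1 marker each of adipocytes, of B and plasma cells and of intestinal epithelium reached 1 RPKM in a library. None of the markers in the table was at 0 in all 4 libraries. Their part in the histone differences was not tested.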

How the data were processed

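RNA from ILC2s of 2 tissues was sequenced in 4 libraries, 2 per tissue, grouped by the sample titles. The deposited table holds 1 RPKM value per gene and library. Reads were handled with STAR 2.6.0 and featureCounts 1.6.0 (Subread), per the submitters' processing notes; the sources used here do not give the annotation, strand setting or treatment of reads that map to several places. Column sums ran from 136705 to 158718 RPKM, and 232 genes were at 0 throughout.

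Values were used as deposited and transformed to log2(RPKM + 1). The 8230 genes that reached 1 RPKM in 2 or more libraries were fitted with limma 3.58.1 (variance trend, prior degrees of freedom 4.4) in R 4.3.3, with Benjamini-Hochberg adjustment over all of them. The fit was tested on simulated data. Sums, counts and motif searches were made in Python 3.11.15. Lengths, overlaps and transcript sequences came from GENCODE M21 and promoters from RefSeq, matched by Ensembl identifier or synonym for 74 of the 83 members. Named were all members with a call, the 6 most abundant of each class, and up to 4 called genes per direction of each related list; the germ cell variants, H1f0, H2afy2, H2afj, Hist1h1a, Hist1h1t, Hist2h4 and Mki67, Top2a, Ccna2, Cdk1, Aurka, Pcna, Fen1, Lig1 and Slbp were added after their values were seen. The members and lists were chosen with earlier results of these data known. Alternatives were another pseudocount (0.1), a stricter minimum (5 RPKM) and none, other scalings, a replicate block and each library left out.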

Additional observations from a re-analysis of the deposited data

How the results depend on the processing

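Among the 23 named members, only H3f3a, Hist1h2ao and Hist1h2ap, which had no call, changed sign under an alternative. Over all genes, median-of-ratios scaling turned the split of calls to 1956 for SI-ILC2s against 1817 for WAT-ILC2s. With a minimum of 5 RPKM, which leaves fewer genes, 899 genes were higher in SI-ILC2s (1470 in the reported fit) and 1182 in WAT-ILC2s (2436); replication-dependent counts became 3 (14) and 0 (1), and the replacement count in WAT-ILC2s 1 (2). With no minimum, 3 replication-dependent genes were higher in WAT-ILC2s, namely Hist3h2a, Hist1h1a and Hist2h4. H2afy lost its call with no minimum, median-of-ratios scaling or quantile normalization, so 1 replacement gene was then higher in WAT-ILC2s. Leaving out 1 library gave 983 to 1595 genes higher in SI-ILC2s and 1492 (without SI-ILC2 replicate 1) to 2551 in WAT-ILC2s, 12 to 16 and 0 to 1 replication-dependent genes, and 2 and 1 to 2 replacement genes; a lone library is then assumed to vary like the other tissue. The log2 ratio of replication-dependent sums was 1.03, with 0.66 without Hist1h1c and 0.90 to 1.17 without 1 library. Over the 23 members at the minimum it was 1.29. That choice of members favours SI-ILC2s, since 8 of the 23 reached the minimum in SI-ILC2s only. The log2 ratio of replacement sums was 1.17, and 1.36 with median-of-ratios scaling, 0.83 without H2afz and 1.06 to 1.28 without 1 library. Replicate numbers are shared between tissues, but the labels do not say what they mark; deviations of same-numbered libraries correlated at 0.572 across 8230 genes, with only 2 pairs. With a replicate block, 2271 genes were higher in SI-ILC2s, 16 replication-dependent genes were higher there, and H2afx passed (adjusted p = 0.0033, limma). H2afx also passed with median-of-ratios scaling (0.027). Hist1h2bq, Hist1h2br and Hist1h3f lost their calls with no minimum, and Hist1h3f with equal sums; the cause was not tested. Reads per gene limit the precision of replication-dependent genes, and RPKM carries no counting error of its own.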
